A study of Mus musculus with 8 samples.

Results

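The glycolytic enzyme isoforms described here are Hk1 and Hk2, Pfkp, Pfkm and Pfkl, Aldoa and Aldoc, Pgam1 and Pgam2, and Pkm, chosen by gene name from a table of RNA levels in the neonatal mouse heart. The 10 names matched 11 of the 54532 gene rows, since Aldoa has 2 rows, and all 11 rows passed the filter on low values that left 13029 rows for testing. Levels are FPKM, fragments per kilobase of gene, scaled to the mapped fragments of the library. All 8 libraries came from whole hearts of untreated animals at postnatal day 4. The 4 control mice carried 1 floxed and 1 wild-type allele of Mrps5, a gene of the mitochondrial ribosome (Mrps5 fl/+). The 4 cHET mice were their littermates and carried the same floxed allele with Cre driven by the promoter of Myh6 (Mrps5 fl/+; Myh6-Cre), so that cardiomyocytes lose 1 allele late in embryonic life, per the labels. Other cells of the heart keep both alleles. As no group had Cre with wild-type Mrps5, Cre itself and loss of the allele cannot be told apart.

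Glycolysis turns glucose into pyruvate in the cytosol, and several of its steps have more than 1 gene, with tissue-specific products. The heart before birth relies on glycolysis to a large extent and moves towards oxidation of fatty acids after birth. Hk2, Pfkm, Aldoa and Pgam2 are abundant in contracting tissue, Aldoa also in many embryonic tissues. Hk1, Pfkp and Aldoc are the forms compared with them here as fetal or proliferative, and all are also expressed in brain. Which isoform a cell makes alters how the enzyme responds to energy charge, hormones and binding to mitochondria.

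The libraries held 15490622 to 19234777 reads assigned to genes. By Xist and Ddx3y, 3 hearts were male (control 1, control 3, cHET 1) and 5 were female. The brown fat gene Ucp1 was highest in control 1 (17.8 FPKM) and control 2 (16.7 FPKM), reached 6.56 FPKM in cHET 2 and lay at 1.62 FPKM or less elsewhere. The 5 atrial markers summed to 243 FPKM in cHET 3, to 3431 to 5281 FPKM in the other cHET hearts and to 1463 to 5121 FPKM in control. Summed levels of 10 cardiomyocyte markers were 18855 to 21667 FPKM in control and 17881 to 21801 FPKM in cHET, so the defining genes of heart muscle were abundant in every library. The targeted gene Mrps5 ran from 5.15 to 11.6 FPKM in control and from 6.84 to 7.68 FPKM in cHET, and its groups overlapped. In whole tissue, a change in how many cells of a type are present and a change in RNA per cell cannot be told apart.

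Pfkp and Aldoc, which the comparison places with the fetal or proliferative isoforms, had higher levels in every cHET heart than in any control heart. Hk1, which is also placed there, overlapped between groups. So did Hk2, Pfkm and the main row of Aldoa, placed with the muscle isoforms. Group means of Pfkp were 13.2 ± 0.851 FPKM for control and 19.8 ± 4.09 FPKM for cHET, and those of Aldoc were 2.12 ± 0.363 and 3.18 ± 0.335 FPKM (SD, n = 4). The groups separated in this way for 3 of the 11 rows, all higher in cHET, the third being the second, faint Aldoa row. That row carries the name of a muscle isoform. Over all genes tested, 2.74% separated as higher and 2.0% as lower. No row of the 11 passed limma with p-values adjusted over all 13029 genes, where 0.023% of genes passed. At an unadjusted limma p under 0.05 there were 5 of the 11 rows, all higher (Pfkp, Aldoc, Hk1, Pgam1 and the second Aldoa row), against a background of 8.95% of all genes, 5.03% higher and 3.92% lower.

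Pfkm, Aldoa and Pgam2 had the highest level among the isoforms of their steps, and Hk1 that of the hexokinase pair. By mean FPKM over the 8 libraries, Aldoa (691 FPKM) and Pgam2 (659 FPKM) led by the table's gene lengths, with overlapping ranges, Aldoa being the higher in 5 of 8 libraries. Pkm (246 FPKM), Pfkm (135 FPKM) and Pgam1 (57.6 FPKM) followed. The ranges of Pgam2 and Pkm, of Pkm and Pfkm, and of Pfkm and Pgam1 were apart from each other. Hk1 (31.2 FPKM), Pfkl (27.7 FPKM), Hk2 (19.7 FPKM) and Pfkp (16.5 FPKM) came next, with each neighbour overlapping the one before. Aldoc (2.65 FPKM) and the second Aldoa row (1.76 FPKM) were lowest. This order, and which neighbours overlap, rests on the gene lengths in the deposited table, which for Pfkp is 13401 bases against 4145 bases for its principal GENCODE transcript. With principal transcript lengths, a choice made after seeing the data, the rescaled mean FPKM of Pfkp was 53.3 and lay above those of Pfkl (49.6) and Hk2 (21.4). Reads outside the principal transcript were kept in the rescaled values, which are therefore upper bounds and favour genes with long gene models. Aldoa, at 1331 (range 1148 to 1685), then lay apart from Pgam2 at 659 (502 to 788). Pgam2 overlapped Pkm at 505 (411 to 593), and Hk1 (69.2) lay above Pgam1 (59.5). A length is the same in all libraries, so it leaves the fold between groups as it is.

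**Figure D1:**
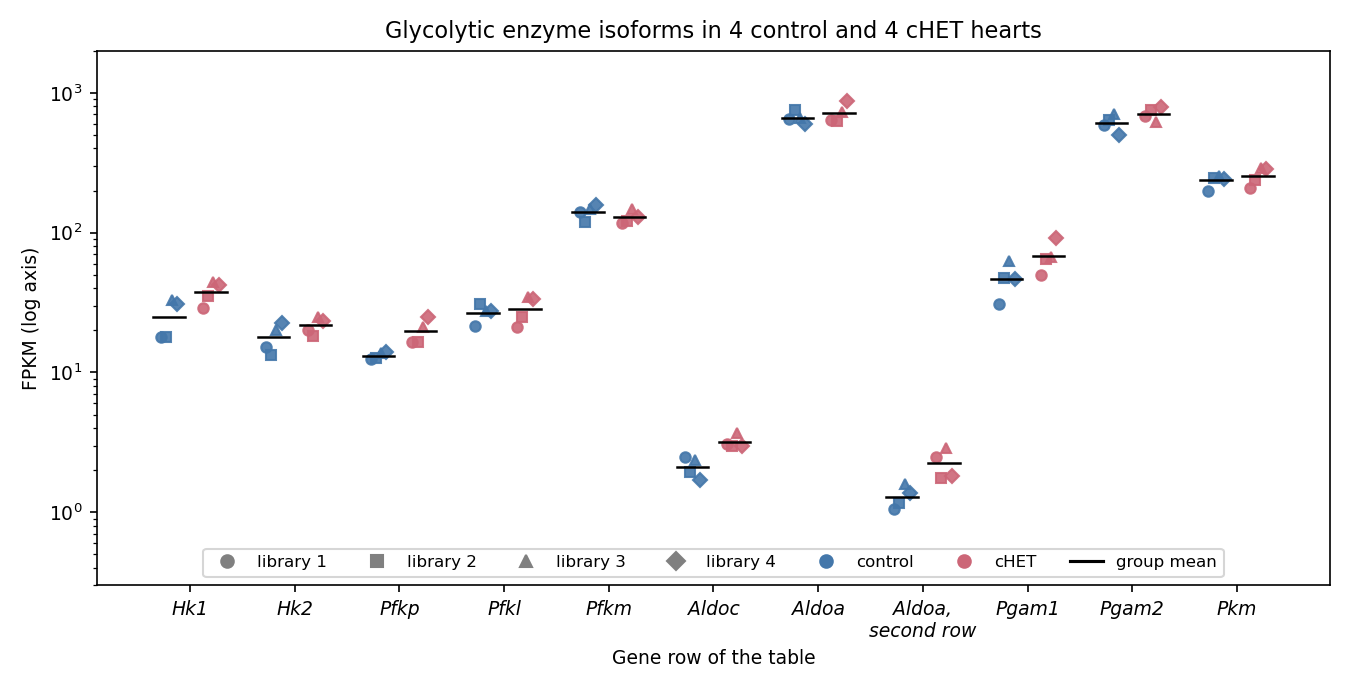
FPKM on a log axis for each of the 11 gene rows in the 4 control (blue) and 4 cHET (red) libraries, with symbols for library numbers and a bar at each group mean. Pfkp, Aldoc and the second Aldoa row show every cHET library above every control library, and the other 8 rows overlap.

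Phosphofructokinase makes fructose 1,6-bisphosphate and is the committed, most regulated step of glycolysis. It works as a tetramer of muscle (Pfkm), liver (Pfkl) and platelet (Pfkp) subunits. Pfkp (ENSMUSG00000021196, chromosome 13, 6579768 to 6648777, minus strand, GRCm38) stood at 12.4, 12.6, 13.8 and 14.05 FPKM in control 1 to 4 and at 16.6, 16.5, 21.1 and 25.0 FPKM in cHET 1 to 4. The control hearts lay close together, the cHET hearts spread upwards with cHET 4 highest, and the groups did not overlap. The log2 fold change of Pfkp was 0.53 (SE 0.133, 95% interval 0.23 to 0.83; limma, adjusted p = 0.337). Pfkp rested on 2579 to 5817 reads per library. Groups apart over all 8 libraries are apart within each sex as well, so a split by sex adds no test for Pfkp. The males were only 2 control libraries and 1 cHET library. Pitrm1 on the opposite strand shares 748 bases with Pfkp and ran from 10.7 to 14.2 FPKM. The sources used here do not say whether the counting used strand, so a small part of either value may belong to the other gene.

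The promoter windows of Pfkp and Aldoc are given because these were the members whose groups did not overlap apart from the faint second Aldoa row. Both were cut from the 250 bases before the RefSeq start nearest the gene's start in the deposited table (RefSeq sequences, GRCm38.p6), 5′ to 3′ on the gene's strand, without bases that lie in an annotated exon. That left 244 bases for Pfkp (chr13:6648778-6649021, minus strand) and 145 bases for Aldoc (chr11:78322823-78322967, plus strand, the first of 2 RefSeq starts). Capitals mark matches on either strand to the E-box CACGTG, to its inner part ACGTG, to GCGTG, which like ACGTG is a core of hypoxia response elements, to the GC box GGGCGG, to the TATA box TATAAA and to the inverted or direct CCAAT box.
Pfkp: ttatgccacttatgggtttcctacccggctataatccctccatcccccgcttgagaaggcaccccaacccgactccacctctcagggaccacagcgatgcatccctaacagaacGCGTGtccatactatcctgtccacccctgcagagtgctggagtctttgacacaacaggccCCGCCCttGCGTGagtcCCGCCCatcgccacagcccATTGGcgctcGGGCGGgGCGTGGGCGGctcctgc
Aldoc: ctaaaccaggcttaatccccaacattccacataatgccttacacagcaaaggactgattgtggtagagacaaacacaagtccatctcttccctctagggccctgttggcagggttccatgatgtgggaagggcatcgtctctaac
The Pfkp window had a GC content of 62.3% and held GCGTG 3 times, GGGCGG 4 times and CCAAT 1 time, with one GCGTG and one GGGCGG sharing bases. The Aldoc window had a GC content of 49.0% and held none of the 6 motifs. With the 105 exon bases left out above, its 250 bases had a GC content of 55.2% and held GCGTG 1 time and GGGCGG 1 time. Of 32851 mouse promoter windows of 250 bases, 28.2% held GCGTG, 32.7% GGGCGG, 33.8% CCAAT, 12.4% TATAAA, 16.6% ACGTG and 6.02% CACGTG. In the full 250 bases of the window nearest each gene's start, exon bases included, 4 of the 10 members held GCGTG, Aldoc and Pfkp among them, 4 GGGCGG, 4 CCAAT, 3 ACGTG, 1 CACGTG and 0 TATAAA. A match says only that these letters occur in the window.

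Pfkm, the muscle subunit (ENSMUSG00000033065, chromosome 15, 98092589 to 98132451, plus strand), stood at 140.4, 118, 148 and 157 FPKM in control 1 to 4 and at 117, 121, 147 and 130.0 FPKM in cHET 1 to 4. It was the only row of the 11 with a log2 fold change below 0, at -0.13 (SE 0.123, interval -0.41 to 0.15; limma, adjusted p = 0.741), and the groups overlapped. Pfkl, the liver subunit (ENSMUSG00000020277, chromosome 10, 77986947 to 78010083, minus strand), had 21.7, 30.6, 27.7 and 27.3 FPKM in control and 21.3, 24.9, 34.6 and 33.6 FPKM in cHET. Its log2 fold change was 0.072 (SE 0.169, interval -0.31 to 0.45; limma, adjusted p = 0.898), and it turned below 0 with sex as a covariate (-0.016). Low and high hearts of Pfkl occurred in both groups.

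Within each heart, the ratio of Pfkp to Pfkm compares the platelet with the muscle subunit and does not depend on the library total. It was 0.0882, 0.106, 0.0935 and 0.0896 in control 1 to 4 and 0.142, 0.136, 0.144 and 0.192 in cHET 1 to 4. No control heart reached the lowest cHET heart, and cHET 4 stood well above the other 3. The log2 ratio averaged -3.41 ± 0.122 for control hearts and -2.72 ± 0.229 for cHET hearts (SD, n = 4), a difference of 0.69 or 1.61-fold. An exact two-sided permutation test gave p = 0.0286, the smallest that 4 against 4 libraries allow, and p = 0.143 after Benjamini-Hochberg adjustment over the 5 isoform pairs compared. The ratio of Pfkl to Pfkm overlapped, with a log2 difference of 0.20 (exact permutation test, p = 0.343, adjusted p = 0.343). As a share of the summed phosphofructokinase FPKM, Pfkp made up 7.32 ± 0.326% in control and 11.1 ± 1.44% in cHET, and Pfkm 77.7 ± 3.14% and 72.9 ± 2.92% (SD, n = 4). With principal transcript lengths, and all reads of each gene kept, the shares of Pfkp were 16.8 ± 0.457% and 24.1 ± 2.47%. The summed FPKM of the 3 genes overlapped between groups, at 181 ± 16.2 in control and 177 ± 22.2 in cHET.

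**Figure D2:**
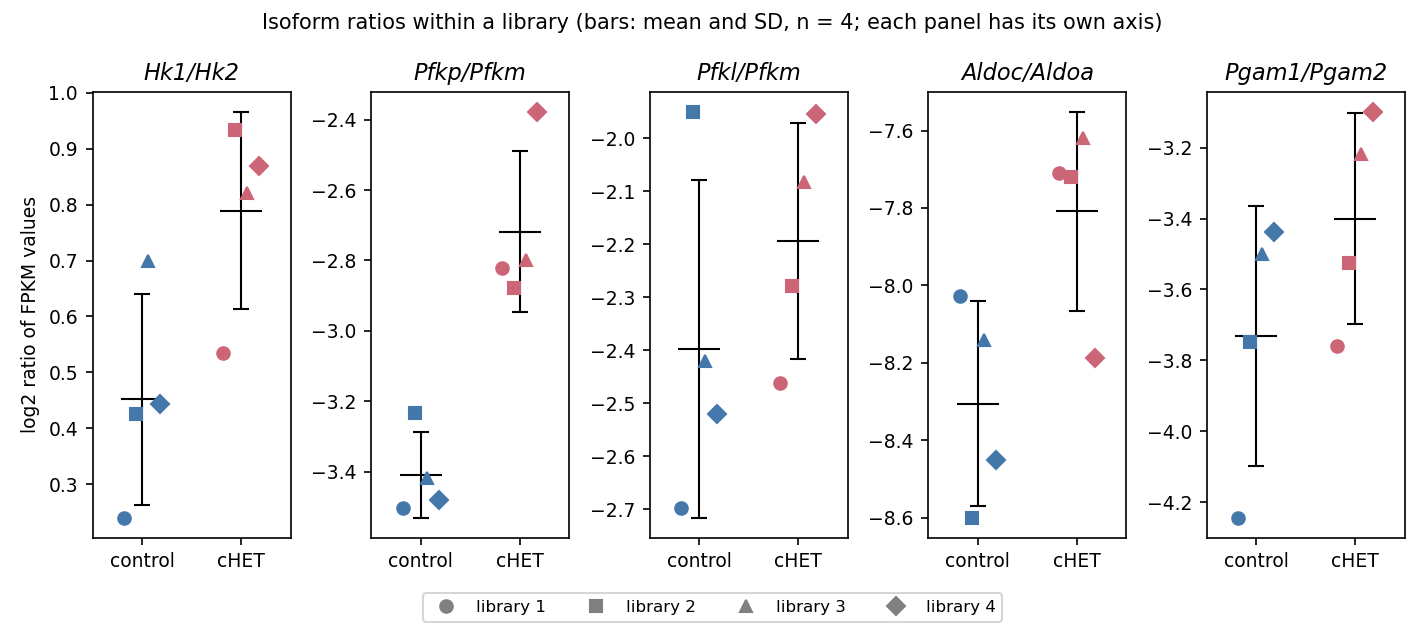
Log2 ratio of the FPKM of 2 isoforms within each library, 1 panel per pair with its own vertical axis, for control (blue) and cHET (red), with symbols for library numbers and bars for mean and SD (n = 4). The Pfkp to Pfkm ratio separates the groups, and the other 4 pairs overlap.

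Aldolase splits fructose 1,6-bisphosphate. Aldoa is the form of muscle and many embryonic tissues, and Aldoc that of brain. Aldoc (ENSMUSG00000017390, chromosome 11, 78322968 to 78327781, plus strand) stood at 2.49, 1.94, 2.35 and 1.70 FPKM in control 1 to 4 and at 3.07, 2.98, 3.68 and 3.00 FPKM in cHET 1 to 4. The groups did not overlap, and 3 of the 4 cHET hearts lay within a narrow band below cHET 3. Its log2 fold change was 0.43 (SE 0.107, interval 0.19 to 0.67; limma, adjusted p = 0.337). On the log2(FPKM + 1) scale this understates a low gene, and the ratio of its group means was 1.502. Aldoc rested on 91 to 194 reads per library, so counting error alone gives control 1 a 95% Poisson interval of 2.07 to 2.96 FPKM and cHET 2 one of 2.58 to 3.43 FPKM. The counting intervals of the highest control and the lowest cHET heart therefore overlapped. No other gene of the table overlaps Aldoc. Its groups were apart within each sex, which follows from their lack of overlap over all 8 libraries.

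Aldoa (ENSMUSG00000030695, chromosome 7, 126795234 to 126800751, minus strand) stood at 649, 751, 664 and 596 FPKM in control 1 to 4 and at 642, 628, 724 and 875 FPKM in cHET 1 to 4. Apart from cHET 4 the hearts of both groups shared 1 range, and the log2 fold change was 0.10 (SE 0.147, interval -0.23 to 0.43; limma, adjusted p = 0.822). Without cHET 4 it was 0.0018. The ratio of Aldoc to Aldoa had a log2 difference of 0.50, from -8.31 ± 0.266 to -7.81 ± 0.256 (SD, n = 4; exact permutation test, p = 0.0857, adjusted p = 0.143). After quantile normalization of log2(FPKM + 1) that difference was 0.12, and with a pseudocount of 1 alone 0.33. Its groups overlapped because cHET 4, the heart with the most Aldoa, lay below control 1 and control 3. Aldoc was 0.319 ± 0.0579% of the summed Aldoa and Aldoc FPKM in control and 0.449 ± 0.0730% in cHET, so Aldoa made up nearly the whole step in both.

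The second row named Aldoa (ENSMUSG00000114515, chromosome 7, 126800790 to 126809108, minus strand) lies upstream of the main gene and within Fam57b on the other strand. It stood at 1.05, 1.16, 1.59 and 1.38 FPKM in control 1 to 4 and at 2.49, 1.76, 2.88 and 1.80 FPKM in cHET 1 to 4, with no overlap between groups. The log2 fold change was 0.49 (SE 0.138, interval 0.18 to 0.80; limma, adjusted p = 0.379). It rested on 13 to 37 reads per library, and it overlaps Fam57b over 8319 bases, so its value is uncertain. Fam57b itself ran from 1.80 to 2.93 FPKM in control and from 1.98 to 2.50 FPKM in cHET.

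Hexokinase traps glucose in the cell as glucose 6-phosphate. Hk1 is the widely expressed form that binds mitochondria, and Hk2 is the insulin-responsive form of muscle. Hk1 (ENSMUSG00000037012, chromosome 10, 62268855 to 62379908, minus strand) stood at 18.0, 17.8, 32.8 and 30.7 FPKM in control 1 to 4 and at 29.1, 35.0, 44.3 and 42.3 FPKM in cHET 1 to 4. Control 1 and control 2, the hearts with the most Ucp1, were low, and cHET 1 lay below control 3 and control 4. The log2 fold change of Hk1 was 0.62 (SE 0.225, interval 0.11 to 1.13; limma, adjusted p = 0.486). Without control 1 and control 2 it was 0.22 (limma, adjusted p = 0.771), and the part of the tissue that carries Ucp1 was not tested. Among females, every cHET heart lay above both control hearts, and among males the single cHET heart lay between the 2 control hearts.

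Hk2 (ENSMUSG00000000628, chromosome 6, 82725025 to 82774454, minus strand) stood at 15.2, 13.3, 20.2 and 22.6 FPKM in control 1 to 4 and at 20.1, 18.3, 25.1 and 23.2 FPKM in cHET 1 to 4. The same 2 control hearts were lowest, and the groups overlapped. The log2 fold change was 0.29 (SE 0.169, interval -0.092 to 0.67; limma, adjusted p = 0.642) over 8 libraries and 0.0093 without control 1 and control 2 (limma, adjusted p = 0.993). The ratio of Hk1 to Hk2 was 1.18, 1.34, 1.62 and 1.36 in control 1 to 4 and 1.45, 1.91, 1.77 and 1.83 in cHET 1 to 4. All cHET hearts but cHET 1 exceeded every control heart. The log2 difference of the ratio was 0.34, from 0.45 ± 0.188 to 0.79 ± 0.176 (SD, n = 4; exact permutation test, p = 0.0571, adjusted p = 0.143), and 0.22 without control 1 and control 2. Hk1 was the larger of the pair in every library, with 57.7 ± 3.17% of their summed FPKM in control hearts and 63.3 ± 2.87% in cHET hearts (SD, n = 4). Antisense genes overlap both, Hk1os with Hk1 and Gm17034 with Hk2, and neither exceeded 0.745 FPKM.

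Phosphoglycerate mutase moves the phosphate group of 3-phosphoglycerate. Pgam1 is the form of brain and most tissues, and Pgam2 that of muscle. Pgam1 (ENSMUSG00000011752, chromosome 19, 41911871 to 41918664, plus strand) stood at 31.0, 47.2, 62.6 and 46.4 FPKM in control 1 to 4 and at 50.1, 65.2, 66.7 and 91.9 FPKM in cHET 1 to 4. Only cHET 1 lay below a control heart, control 3, and the lowest value of all was in control 1. Its log2 fold change was 0.55 (SE 0.229, interval 0.033 to 1.06; limma, adjusted p = 0.544), and 0.31 without control 1 and control 2 (limma, adjusted p = 0.773). As for Hk1, the females separated and the males did not. The table lists 2 pseudogenes of Pgam1 with a summed level of 1.83% of that of the gene.

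Pgam2 (ENSMUSG00000020475, chromosome 11, 5801640 to 5803733, minus strand) stood at 587, 634, 709 and 502 FPKM in control 1 to 4 and at 678, 750.3, 621 and 788 FPKM in cHET 1 to 4. The groups overlapped, with a log2 fold change of 0.23 (SE 0.147, interval -0.10 to 0.56; limma, adjusted p = 0.659). The ratio of Pgam1 to Pgam2 had a log2 difference of 0.33, from -3.73 ± 0.366 to -3.40 ± 0.298 (SD, n = 4; exact permutation test, p = 0.286, adjusted p = 0.343). Without control 1 and control 2 that difference was 0.068. Pgam2 held 92.9 ± 1.55% of the summed FPKM of the pair in control and 91.2 ± 1.62% in cHET.

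Pyruvate kinase closes the pathway, and Pkm yields a muscle form and a fetal or proliferative form by a choice between mutually exclusive exons. The table gives 1 value per gene and so does not split the forms. Pkm (ENSMUSG00000032294, chromosome 9, 59656368 to 59679375, plus strand) stood at 200.1, 248, 256 and 241 FPKM in control 1 to 4 and at 209, 238, 289 and 284 FPKM in cHET 1 to 4. The groups overlapped, and the first library of each was the lowest. The log2 fold change was 0.10 (SE 0.142, interval -0.22 to 0.42; limma, adjusted p = 0.809). AC160637.1 shares 3887 bases and the strand of Pkm, and ran from 11.5 to 20.3 FPKM. Of 5 splicing factors known to set this exon choice, 4 were tested and 0 passed limma. Hnrnpa2b1 had the smallest p, with 131 ± 15.7 FPKM for control and 159 ± 11.6 FPKM for cHET (log2 fold change 0.28; limma, adjusted p = 0.544), followed by Ptbp1 (0.17) and Srsf3 (0.077).

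Across the members, 10 of 11 log2 fold changes were above 0, where 52.1% of all genes tested were. Their median was 0.29, beside 0.0086 for all genes. Hk1, Pfkp and Aldoc, grouped as fetal or proliferative, had 0.62, 0.53 and 0.43, with a median of 0.53. The muscle rows had 0.29 for Hk2, -0.13 for Pfkm, 0.10 for Aldoa and 0.49 for the faint second Aldoa row, with a median of 0.19. With control 1 and control 2 left out, the values of Pfkp (0.45) and Aldoc (0.47) stayed near those over 8 libraries. Those of Hk1 (0.22), Hk2 (0.0093), Pgam1 (0.31), Pfkl (0.027) and Pkm (0.025) were smaller by more than 1.5 times, and those of Pfkm (-0.25) and Aldoa (0.18) were larger by more than 1.5 times.

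**Figure D3:**
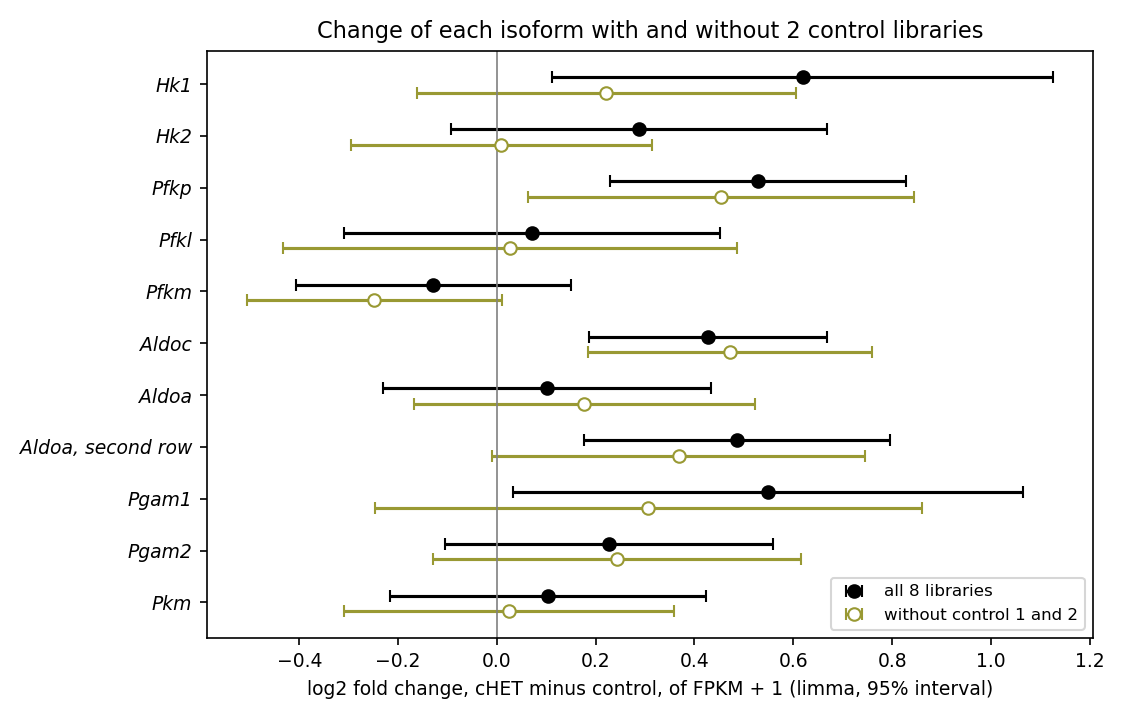
Log2 fold change of each gene row, cHET minus control, on the log2(FPKM + 1) scale with its 95% limma interval, over all 8 libraries (black) and without control 1 and control 2 (open, olive). Pfkp and Aldoc keep intervals above 0 in both, Hk1 moves from 0.62 to 0.22, and Pfkm is the only row below 0.

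The hearts themselves differed along the members. Of the 11 rows, 6 had their highest value in cHET 3 and 4 in cHET 4, and Pfkm had its highest in control 4. As cHET 3 was also the heart with the least atrial marker RNA, the values without it are given. Pfkp then had a log2 fold change of 0.49 and Aldoc of 0.37, and the part of the atria in these values was not tested. Lowest values fell in control 1 for 4 rows, in control 4 for 3, in control 2 for 2 and in cHET 1 for 2. In cHET 3, Hk1, Pfkp and Aldoc lay 0.57, 0.40 and 0.52 above their means over the 8 libraries on the log2 scale. In cHET 4 they lay 0.51, 0.64 and 0.22 above. In cHET 1 they lay at -0.03, 0.05 and 0.25, and in cHET 2 at 0.23, 0.04 and 0.21.

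**Figure D4:**
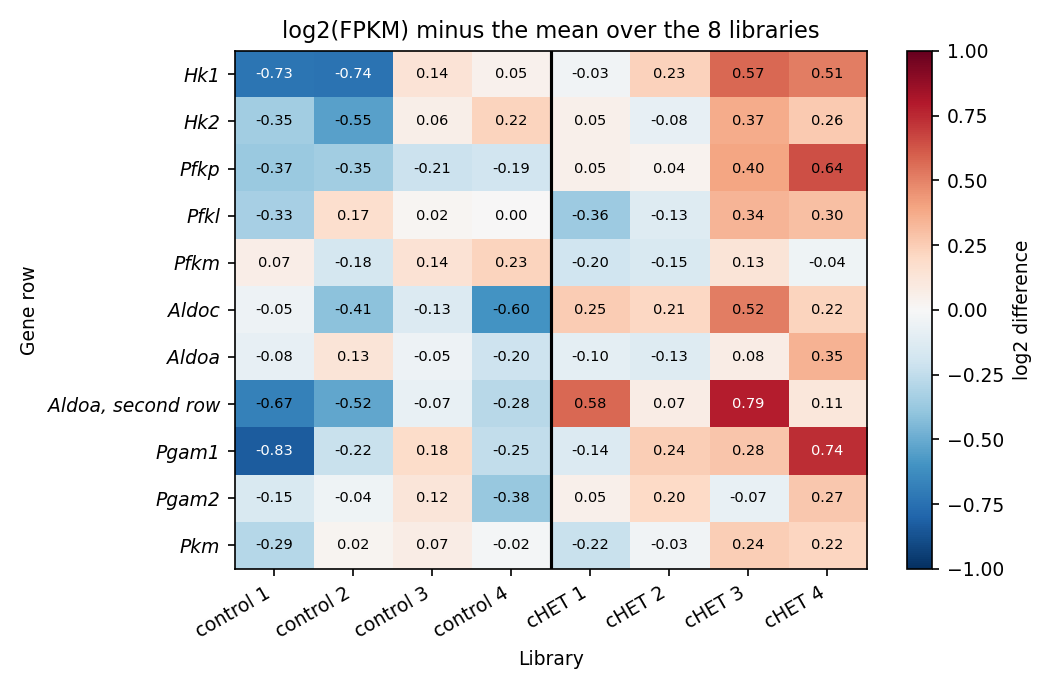
Difference of log2(FPKM) from the row's mean over the 8 libraries, 1 column per library and 1 line per gene row, with red above and blue below the mean and the value written in each cell. Control 1 and control 2 are mostly blue and cHET 3 and cHET 4 mostly red, and Pfkm differs from this pattern, with its highest value in control 4.

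Proliferation marker sums were apart between the groups beside these isoforms, as were skeletal muscle sums, largely through 1 gene, and leukocyte sums overlapped. Summed over 6 proliferation markers, levels were 71.4 to 109 FPKM in control and 115 to 173 FPKM in cHET. All 6 had an unadjusted limma p under 0.05 and none an adjusted one, and 4 separated the groups, all as higher in cHET. Over all genes tested, 5.03% had such an unadjusted p as higher and 2.74% separated as higher. Mki67 ran from 11.4 to 21.03 FPKM in control and from 21.5 to 35.2 FPKM in cHET. The 12 skeletal muscle markers summed to 7.30 to 11.3 FPKM in control and 14.2 to 23.9 FPKM in cHET. Pvalb alone gave 9.35 FPKM in cHET 2, the heart with the highest sum. Of the 5 tested, 4 had a log2 fold change above 0 and 1 (Mylpf) below, and 2 had an unadjusted limma p under 0.05. Among these 5 only Tnni2 separated the groups, at 1.96 to 4.18 FPKM in control and 7.004 to 7.58 FPKM in cHET. It gave 7.40 of the 14.2 FPKM in cHET 3, the lowest cHET sum. In control 2, the highest control sum, it gave 4.18 of 11.3 FPKM. The gap between the skeletal muscle sums therefore rests on Tnni2. Myod1 was at 0 in all 8 libraries, and Myh1 and Myh4 at 0.0585 FPKM or less. The 10 leukocyte markers summed to 86.6 to 232 FPKM in control, with control 1 and control 2 highest, and 69.8 to 106 FPKM in cHET. Of the 9 tested, 4 had an unadjusted limma p under 0.05, all lower in cHET, against 3.92% of all genes. None of these, 0 of 9, separated the groups, and all 9 were below 0. Other lists held lower genes too. Of 7 endothelial markers, 5 were below 0 and 2 above. Of these 7, 3 had an unadjusted limma p under 0.05 as lower and 1 separated as lower. All 7 fibroblast markers were below 0, with 0 at such a p. Of 10 cardiomyocyte markers, 6 were below 0 and 4 above, and 1 separated as lower. Over all genes tested, 2.0% separated as lower. The part of these cells in the isoform values was not tested.

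No other gene of the pathway that was tested passed. Of 21 other glycolytic enzyme genes listed, 12 were tested and 0 passed limma in either direction, with 9 above 0 and a median log2 fold change of 0.091. The smallest p belonged to the enolase Eno1, with 97.5 ± 13.5 FPKM for control and 118 ± 14.9 FPKM for cHET (log2 fold change 0.28; limma, adjusted p = 0.586). Gpi1, which makes fructose 6-phosphate, had 0.18. Eno1b, a close copy of Eno1 whose reads the counting may have split with it, had 0.22. Gapdh, named after its values were seen, ran from 4.28 to 95.2 FPKM and was high in control 2, cHET 2 and cHET 4, so its value is uncertain. Of 5 genes that set fructose 2,6-bisphosphate, the activator of phosphofructokinase, 0 passed and the median was -0.021. Pfkfb1 had -0.19, Tigar, a phosphatase of that compound, 0.14, and Pfkfb2 -0.052.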

How the data were processed

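RNA of 8 whole hearts, 4 per group, was purified with poly-T beads and sequenced, per the labels' protocols. The authors deposited 1 table of FPKM values per gene and library. Build mm9 and the tools DESeq2 (1.20.0), featureCounts (1.5.0-p3) and HISAT2 (2.0.5) are named, without roles, per the submitters' processing notes. The table's coordinates match GRCm38 (GENCODE M21) for 98.3% of 54495 shared identifiers and are given on that build. FPKM times gene length gave whole reads, within 0.05, for 99.997937% of values, so reads per gene could be rebuilt.

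Genes with a mean FPKM of at least 1 entered limma (3.58.1, R 4.3.3) as log2(FPKM + 1) (eBayes with trend and robust), two-sided, with Benjamini-Hochberg adjustment over 13029 genes and a threshold of 0.05. Isoform ratios were compared with an exact permutation test over libraries. Intervals on reads are exact Poisson intervals and cover counting error only. All members were named, and of each pathway list the 3 genes with the smallest p; Gapdh and genes that overlap members were added later. The members, lists and tests were chosen with earlier results of these data known. The limma step was also run on simulated data with the same dispersion for every gene. That run does not cover differences between libraries such as those described here. Alternatives changed the pseudocount, filter, scaling, variance model, unit, pairing, sex term and libraries; no library was left out of the main comparison.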

Additional observations from a re-analysis of the deposited data

Results flagged for a closer look

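Among 32 groups of 4 values, 2 had 1 library far from the other 3, by a gap past Dixon's 95% critical value. Chance gives such a gap in about 1 group in 20. In cHET, Aldoc was highest in cHET 3 at 3.68 FPKM, with a gap of 0.881 of the range. The Pfkp to Pfkm ratio in cHET was highest in cHET 4 at 0.192, with a gap of 0.864 of the range. Without cHET 3 the log2 fold change of Aldoc was 0.37, and without cHET 4 the log2 difference of the Pfkp to Pfkm ratio was 0.58.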

How the results depend on the processing

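None of the 20 alternatives called a member or another glycolytic gene (0 calls each; 5 member rows and 0 of the other enzymes had an unadjusted limma p under 0.05 over all 8 libraries). Over all genes, limma called 3 genes, against 1 with a mean FPKM of at least 5, 11 with library weights, 1 with the replicate block and 2 to 3 with 1 library left out. Member rows with every cHET value above every control value were 3, against 1 with a mean FPKM of at least 5, where 9 rows were left. With 1 library left out they were 3 to 5, the 5 being without cHET 1, when Hk1 and Pgam1 also separated. Leaving out a library cannot undo a separation, so this count could not fall below 3. Quantile normalization took the Aldoc to Aldoa log2 difference from 0.50 to 0.12 (exact permutation test, adjusted p = 0.486); the cause was not tested. Pfkl turned below 0 with sex as a covariate (-0.016) and without control 1, cHET 3 or cHET 4 (-0.023, -0.027 and -0.012), in a range of -0.027 to 0.20 with 1 library left out; the cause was not tested. The other 10 rows kept their direction in every alternative that tested them. With principal transcript lengths in place of the table's, Hk1 was 73.6% and 77.9% of hexokinase FPKM in control and cHET, and Hk2 26.4% and 22.1%. Pfkm was then 64.2% and 56.8%, Pfkl 19.0% and 19.2% and Pfkp 16.8% and 24.1% of phosphofructokinase, and Aldoc 0.194% and 0.273% of aldolase. Same-numbered libraries correlated at 0.286, 0.266, 0.0521 and 0.0572. Differently numbered ones ran from -0.272 (control 2 with cHET 3) to 0.344 (control 4 with cHET 3), most of them below 0. The group mean of each gene was taken out first, so values of both signs are built in. Whether the numbers pair the samples cannot be told from these values. With the replicate block the ratio differences were as in the unpaired comparison (Pfkp to Pfkm 0.69), and no member was called. The exact sign-flip test gave an unadjusted p = 0.125 for Pfkp to Pfkm, the smallest that 4 pairs allow. Depth limits Aldoc (91 to 194 reads) and the second Aldoa row (13 to 37 reads). The labels call the 4 samples of a group biological replicates.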
